A study of Mus musculus with 28 samples.

Results

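Genes of myelin and of astrocytes were followed through axon-TRAP of the mouse superior colliculus (SC), 9 of the 23995 genes listed in the deposited tables. They were taken by name and not by a cut on their values, though with earlier results of these data known. The 6 myelin genes were Mbp, Mobp, Mag, Mog, Cnp and Cldn11, and the 3 astrocyte genes were Gfap, Aqp4 and Aldh1l1. Axon-TRAP pulls down HA-tagged ribosomes, here from the SC, where the axons of retinal ganglion cells (RGCs) end, and sequences the mRNA that comes with them. All animals were C57BL/6 offspring of a homozygous RiboTag mother and a Pax6-alpha-Cre father, so every group carried the RiboTag allele, which yields HA-tagged RPL22 only after Cre recombination. Cre-positive SC therefore held tagged ribosomes in retinal axons, whereas Cre-negative littermates had none and gave the background of the same pull-down and amplification. Pax6-alpha-Cre is active in progenitors of the peripheral retina, so the tagged retinal cells include more than RGCs. The retina groups came from Cre-positive animals by the study's text, which names dissected retina in one place and whole eyes in its methods. Tissue of several animals was pooled for each library. There were 12 groups of 2 libraries, 3 groups (retina and the SC of either genotype) at each of 4 stages, which were E17.5, P0.5, P7.5 and the adult, and 4 further adult libraries with or without ribosome run-off.

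Oligodendrocytes wrap axons in myelin, and their mRNAs for myelin proteins include some, such as that of Mbp, that are carried into the myelin processes and translated there. Astrocytes are resident in the SC and express metabolic enzymes, water channels and the intermediate filament GFAP. Neither cell type is the target of the retinal Cre, and myelin of the visual pathway forms after birth. Setting Cre-positive against Cre-negative libraries asks whether these mRNAs depended on the tag, and the comparison with retina asks whether they were particular to the tissue that was dissected.

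Levels are FPKM, a fragment count scaled by transcript length and by the depth of the library, and so can be set side by side between genes. Of the 9 genes, 4, namely Mobp, Mag, Mog and Aqp4, were listed at 0 in all 24 libraries. Genes listed at 0 throughout made up 45.8% of the table, and Gapdh, which every cell uses, was listed at 0 in 18 of the 24 libraries, so an entry of 0 is given here as a listing and not as absence. The spacing of low values put the depth at 484113 to 13579500 fragments per library. In the adult SC it was 515077 to 2109730 fragments. For Mobp, 3 fragments then corresponded to 2.86 to 11.7 FPKM at 498 bases, the median length of its 5 annotated coding transcripts. For a longer transcript the limit would be lower. These limits cover counting error only.

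Of the myelin genes, Cnp was abundant in all 4 adult SC pull-downs, with or without Cre, and Mbp in 3 of them. Cnp encodes an enzyme of myelin-forming cells that is also part of the cytoskeleton of the myelin sheath, and it was the only gene of the 9 above 0 in all 24 libraries. In adult Cre-positive SC it stood at 653 and 878 FPKM. In adult Cre-negative SC the replicates gave 181 and 3128 FPKM, and in adult retina 21.1 and 9.57 FPKM. The Cre-positive pair lay between the Cre-negative replicates, and all 4 SC libraries were above both retina libraries. The share of all genes with such a split between SC and retina was not computed. Cnp was the 20th to 174th most abundant gene of the adult SC libraries and the 588th and 997th of the adult retina libraries.

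At the earlier stages Cnp was lower in the SC. At P7.5 it stood at 26.5 and 63.8 FPKM in Cre-positive SC, 44.5 and 65.6 in Cre-negative SC and 2.07 and 18.8 in retina. At P0.5 the values were 84.7 and 86.6 FPKM in Cre-positive SC, 86.2 and 48.1 in Cre-negative SC and 3.77 and 2.79 in retina. At E17.5 they were 0.0601 and 2.72 FPKM in Cre-positive SC, 60.2 and 11.4 in Cre-negative SC and 2.46 and 11.3 in retina. From P0.5 on, the SC libraries were all above the retina libraries of their stage. At E17.5 both Cre-negative libraries were above both Cre-positive libraries, and at the other stages the Cre groups overlapped. The share of all genes split in these ways, between the Cre groups or between SC and retina, was not computed. E17.5 Cre-negative replicate 1 was also shallow, at an estimated 484113 fragments against 7261320 to 13579500 in the other E17.5 SC libraries.

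Ordered by the mean of 2 replicates, Cnp ran from adult Cre-negative SC at 1654 ± 2084 FPKM (SD, n = 2) through adult Cre-positive SC at 765 ± 159 FPKM to P0.5 Cre-positive SC at 85.6 ± 1.33 FPKM. P0.5 Cre-negative SC followed at 67.1 ± 26.9 FPKM, then P7.5 Cre-negative SC at 55.1 ± 14.9 FPKM, P7.5 Cre-positive SC at 45.1 ± 26.4 FPKM and E17.5 Cre-negative SC at 35.8 ± 34.5 FPKM. Below these stood retina, at 15.3 ± 8.14 FPKM in the adult, 10.4 ± 11.8 at P7.5, 6.89 ± 6.27 at E17.5 and 3.28 ± 0.690 at P0.5, and last E17.5 Cre-positive SC at 1.39 ± 1.88 FPKM. Neighbours in this order overlapped in their replicates except at the step from the adult to P0.5 Cre-positive SC and at the last step.

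Mbp, which encodes myelin basic protein and is needed to compact the sheath, stayed at or below 2.32 FPKM in the SC until the adult. In adult Cre-positive SC it stood at 81.7 and 110 FPKM. In adult Cre-negative SC it was listed at 0 in replicate 1 and reached 1019 FPKM in replicate 2. Adult retina had 0.0527 and 3.26 FPKM. The Cre-positive pair again fell inside the Cre-negative pair, and Cnp and Mbp placed the 4 adult SC libraries in the same order. Mbp was below Cnp in each of those 4 libraries.

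Before the adult, the highest Mbp value in the SC was 2.32 FPKM, in E17.5 Cre-negative replicate 2. The other E17.5 SC libraries and all 4 at P0.5 were listed at 0, and at P7.5 Mbp stood at 0.0964 and 0 FPKM in Cre-positive and 0 and 0.0522 FPKM in Cre-negative SC. In retina it was 0.0447 and 0.0236 FPKM at E17.5, 0.185 and 0 FPKM at P0.5 and 0 and 2.75 FPKM at P7.5. At P0.5 and P7.5 no SC library was above the higher of the retina libraries.

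Together the 6 myelin genes took 0.502% and 0.491% of all FPKM in adult Cre-positive SC and 0.166% and 1.05% in adult Cre-negative SC. In adult retina they took 0.0119% and 0.00543%. Adult Cre-negative replicate 2, which had the highest share, listed 1159 genes above 0, the fewest of the 24 libraries. Cldn11, the tight junction claudin of myelin, was listed above 0 in 1 library, at 81.7 FPKM in adult Cre-negative replicate 1, the library with the lowest Cnp of the adult SC and no Mbp. These are bulk pull-downs, in which more cells of a type and more RNA per cell cannot be told apart.

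**Figure D1:**
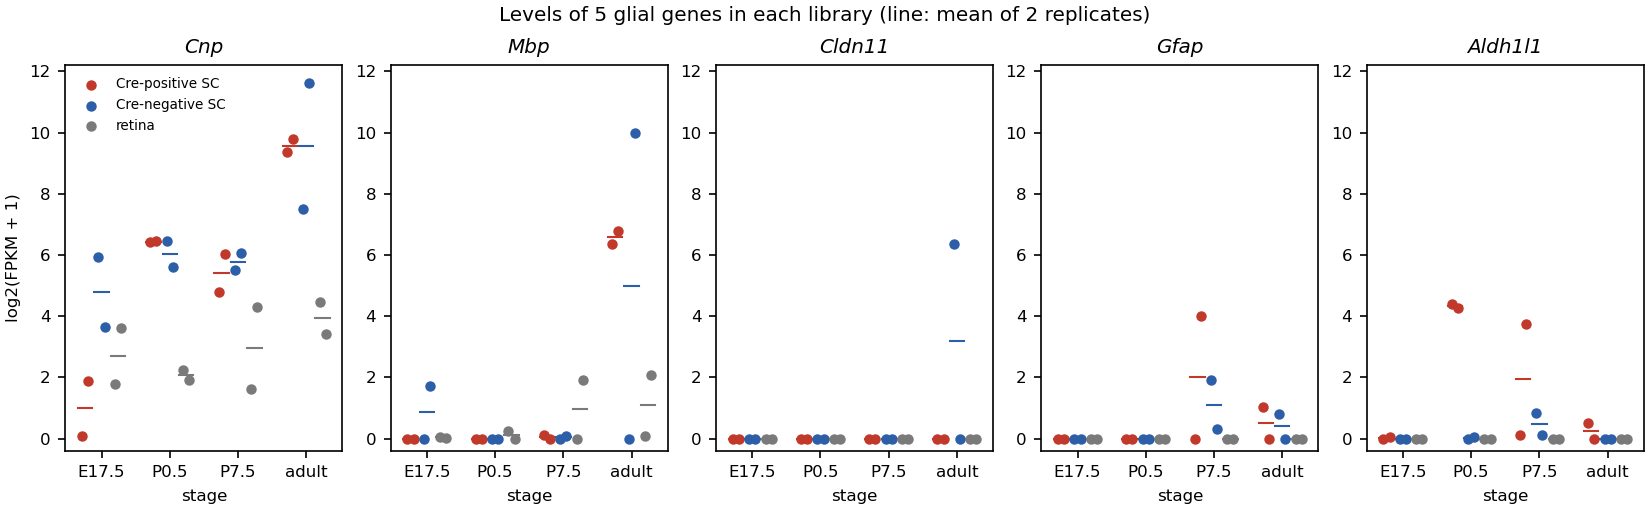
Each point is 1 library, plotted as log2(FPKM + 1) against stage for Cnp, Mbp, Cldn11, Gfap and Aldh1l1, in red for Cre-positive SC, blue for Cre-negative SC and grey for retina, with a line at the mean of 2 replicates. Cnp is highest in the adult SC of both genotypes, with Cre-negative SC spread from 181 to 3128 FPKM. Mbp is high in adult Cre-positive SC (81.7 and 110 FPKM) and in adult Cre-negative replicate 2 (1019 FPKM), with Cre-negative replicate 1 listed at 0. Aldh1l1 is raised in both P0.5 Cre-positive libraries.

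The astrocyte genes were lower and did not share the adult rise. Aldh1l1, a folate enzyme that marks astrocytes, stood at 19.9 and 18.2 FPKM in P0.5 Cre-positive SC against 0 and 0.0289 FPKM in Cre-negative SC of that stage. At P7.5 it was 0.0904 and 12.5 FPKM in Cre-positive and 0.786 and 0.0971 FPKM in Cre-negative SC. At E17.5 its only value above 0 was 0.0265 FPKM and in the adult 0.436 FPKM, both in Cre-positive SC and each worth about 1 fragment. The groups were apart at P0.5, a split whose share over all genes was not computed. They overlapped at P7.5, where 1 Cre-positive library carried the level. Aldh1l1 was listed at 0 in all 8 retina libraries.

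Gfap, the intermediate filament of mature and reactive astrocytes, was listed at 0 in all SC libraries of E17.5 and P0.5 and in all 8 retina libraries. At P7.5 it stood at 0 and 15.0 FPKM in Cre-positive SC and 2.76 and 0.233 FPKM in Cre-negative SC. In the adult it was 1.05 and 0 FPKM in Cre-positive and 0.740 and 0 FPKM in Cre-negative SC, below the 3-fragment limits of 1.55 and 2.22 FPKM of those libraries. Gfap and Aldh1l1 were both highest at P7.5 in Cre-positive replicate 2. Aqp4, the astrocyte water channel, was at 0 throughout.

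The tests were made with limma on log2(FPKM + 1), in which 4 members, Cnp, Mbp, Gfap and Aldh1l1, passed the filter of 1 FPKM in at least 2 libraries. A difference is called where its p, adjusted by Benjamini-Hochberg over all genes tested, is under 0.05. The labels give replicate numbers and no separate litters, so the p-values measure the spread between these pools. Between Cre-positive and Cre-negative SC, 1 of the 4 was called at 1 stage. Aldh1l1 was higher in Cre-positive SC at P0.5 by 4.30 (SE 0.94) on the log2 scale, with a limma adjusted p of 0.00468. At that stage 32.5% of all tested genes were called, and the median gene differed by 0.78 in the same direction, or 0.75 after median-ratio scaling. Aldh1l1 reached 1 FPKM in 3 SC libraries, of which 2 are the P0.5 Cre-positive pair. It thus entered the test through the group in which it was high. Calls of Aldh1l1 that rest on this pair are therefore not read as support for a difference. With no filter the limma adjusted p was 0.00836. Without Cre-positive replicate 1 the difference was 4.24 with a limma adjusted p of 0.0655.

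No member was called between the Cre groups at E17.5, P7.5 or adult, where 1.57%, 0% and 0.15% of all genes were called. At P7.5 limma called 0 genes in all, with 84 at an unadjusted p under 0.05. Among the members at these 3 stages Cnp at E17.5 alone had an unadjusted p under 0.05. For Cnp at E17.5 the difference was -3.79 (SE 1.34, 95% interval -6.77 to -0.81), lower in Cre-positive SC, with a limma adjusted p of 0.445. In the adult the difference of Cnp was 0.01 with an interval of -2.97 to 2.99 and a range of -2.05 to 2.06 when 1 library was left out, and that of Mbp 1.58 with an interval of -3.55 to 6.71. These intervals leave room for large differences in either direction. Without adult Cre-negative replicate 2 the difference of Mbp was 6.58, where the remaining Cre-negative library is listed at 0. Without Cre-negative replicate 1 it was -3.42, so its sign rested on 1 library. Averaged over stages 12.4% of all genes were called and no member was. The nearest was Aldh1l1 at 1.51 (SE 0.47, limma adjusted p of 0.0638), which was 1.96 without P7.5 Cre-positive replicate 1 and 1.06 without replicate 2. Mbp, at 0.19, was 1.44 without adult Cre-negative replicate 2 and -1.06 without replicate 1.

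Between stages, over both Cre groups, Cnp and Aldh1l1 rose from E17.5 to P0.5, by 3.35 (SE 0.95, limma adjusted p of 0.0262) and 2.16 (SE 0.66, limma adjusted p of 0.0367). Both calls were made against a background of 23.8% of genes, and Aldh1l1 entered the test through P0.5, as above. For Aldh1l1 the rise differed between the Cre groups by 4.29 (SE 1.32, limma adjusted p of 0.0344 for the interaction), a test in which 27.1% of genes were called. The interaction of Cnp was of like size, 4.20 (SE 1.90, limma adjusted p of 0.143), and was not called. Its values went from 0.0601 and 2.72 to 84.7 and 86.6 FPKM in Cre-positive SC. In Cre-negative SC the stages overlapped, with 60.2 and 11.4 FPKM at E17.5 and 86.2 and 48.1 FPKM at P0.5. Calls for Cnp were lost when any one of 6 of the 8 libraries was left out, with limma adjusted p of up to 0.174, and those for Aldh1l1 when any of the 8 was, with limma adjusted p of up to 0.203. The rise of Aldh1l1 also missed the threshold with a pseudocount of 0.1 and with no filter, at limma adjusted p of 0.0505 and 0.0610. From P0.5 to P7.5 no member was called, with 27.6% of genes called. Without P7.5 Cre-positive replicate 1 the difference of Gfap was 2.55, and without replicate 2 that of Aldh1l1 was -1.87.

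From P7.5 to the adult Cnp differed by 3.97 (SE 0.95) with an unadjusted p of 0.00175 in limma and an adjusted p of 0.384, and Mbp by 5.74 (SE 1.63) with a limma adjusted p of 0.561. All 4 adult SC libraries were above all 4 P7.5 libraries in Cnp, and the share of all genes split in this way was not computed. Neither gene passed, in a comparison with 0.0334% of genes called. Without adult Cre-negative replicate 1, the library with Cldn11, the differences were 5.0 for Cnp and 8.24 for Mbp, and without replicate 2 that of Mbp was 3.24. With either left out, the wide spread between these replicates no longer entered the fit, so no call is read from such fits. From E17.5 to the adult Cnp rose by 6.67 (SE 0.95, limma adjusted p of 0.0105), with 1.55% of genes called, and the median gene differed by -0.60. Mbp differed by 5.36 (SE 1.63) with a limma adjusted p of 0.138, and by 7.85 without adult Cre-negative replicate 1 and 2.86 without replicate 2.

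Against retina, Cnp was higher in the SC at P0.5 by 4.15 (SE 1.18, limma adjusted p of 0.0220), with 17.9% of genes called. Aldh1l1 was higher by 2.17 (SE 0.67, limma adjusted p of 0.0332). It entered this test too through the P0.5 Cre-positive pair, so its call is not read as support. With same-numbered libraries as blocks its limma adjusted p was 0.0551. Taken from Cre-negative SC alone the difference was 3.94 for Cnp, with a limma adjusted p of 0.124, and 0.02 for Aldh1l1. The call of Cnp was lost without any one of 5 of the 6 P0.5 libraries and that of Aldh1l1 without any of the 6, with limma adjusted p of up to 0.172 and 0.195, and both with a pseudocount of 0.1. No member was called at E17.5, P7.5 or adult, where 1.7%, 0.0417% and 0.0834% of genes were called. In the adult the difference was 5.63 (SE 1.18, 95% interval 3.12 to 8.14) for Cnp and 4.71 (SE 1.70, 95% interval 1.11 to 8.30) for Mbp, with limma adjusted p of 0.102 and 0.410. Without adult Cre-negative replicate 1 they were 6.66 and 7.20, in a fit that the spread of that pair no longer entered. At P7.5 Cnp differed by 2.63 with a limma adjusted p of 1, and without Cre-positive replicate 1 the differences of Gfap and Aldh1l1 were 2.55 and 2.12. The SC values in these contrasts are those of the contrasts between stages, so the calls share samples.

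**Figure D2:**
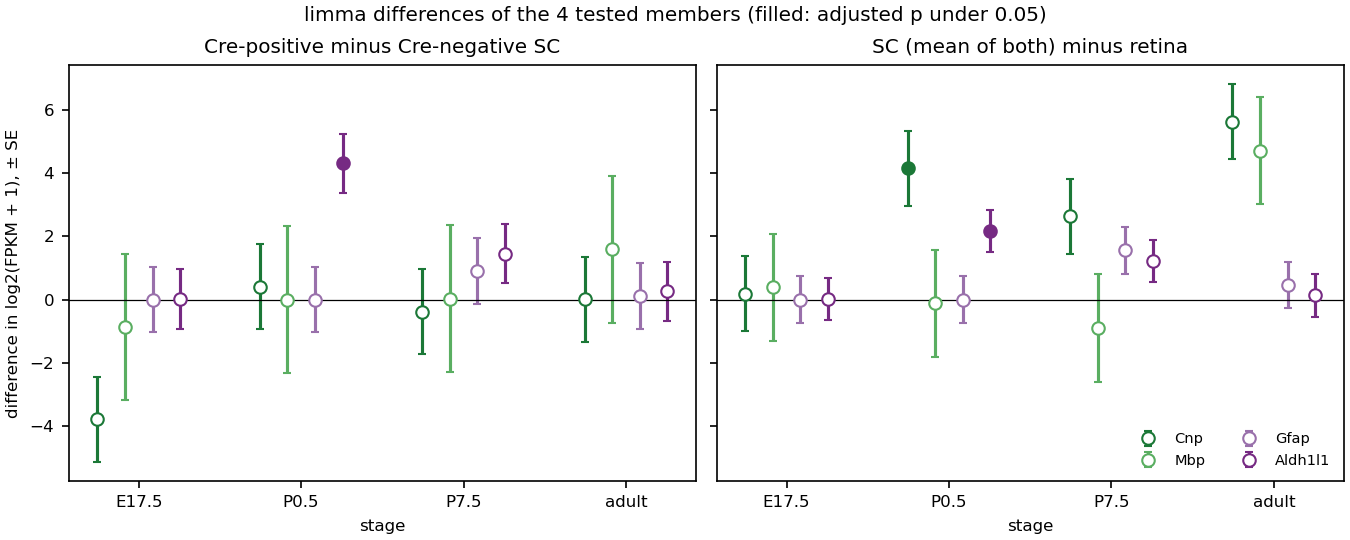
Differences in log2(FPKM + 1) from limma, with SE bars, are plotted by stage for the 4 tested genes, on the left for Cre-positive minus Cre-negative SC and on the right for the mean of both SC groups minus retina. Filled points, with an adjusted p under 0.05, are Aldh1l1 at P0.5 on the left (4.30) and Cnp (4.15) and Aldh1l1 (2.17) at P0.5 on the right. Aldh1l1 entered both tests through the P0.5 Cre-positive pair in which it was high, so its filled points are not read as support. Cnp in the adult is at 0.01 on the left, with a range of -2.05 to 2.06 when 1 library is left out, and at 5.63 on the right.

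Other genes of the same cell types were sparse for oligodendrocytes and plentiful for astrocytes. Of 27 further myelin and oligodendrocyte genes 4 could be tested in the SC. The most abundant of the list in adult SC were Olig1, an oligodendrocyte transcription factor, and Trf, transferrin, at 1799 and 428 FPKM in Cre-negative replicate 2 and 0 in the other 3, and Cryab, a small heat shock protein that lens also expresses, at up to 28.9 FPKM. Adult Cre-negative replicate 2 thus carried the highest Mbp, Cnp, Olig1 and Trf. Summed, the list ran from 0.793 to 2227 FPKM in adult SC and was 35.5 and 116 FPKM in adult retina.

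In that list 1 gene was called between the Cre groups at P0.5, Sox10, a transcription factor of the oligodendrocyte lineage, higher by 3.31 (SE 0.91, limma adjusted p of 0.0175), or 1 of 4 beside 32.5% of all genes, and none at the other stages. It stood at 16.7 and 4.57 FPKM in P0.5 Cre-positive SC, at 9.89 FPKM in adult Cre-negative replicate 1 and at 0 in the other SC libraries. Sox10 so passed the filter through the P0.5 Cre-positive pair, in which it was high. Its call is not read as support for a difference, and with no filter the limma adjusted p was 0.0319. Against retina 7 genes of the list were tested and Cryab was lower at P0.5, with a difference of -4.24 (SE 1.42, limma adjusted p of 0.0497, or 0.0784 with no filter). Of 7 oligodendrocyte precursor genes 2 were tested in the SC. Vcan, a proteoglycan, was above 0.5 FPKM in the 2 E17.5 Cre-negative libraries alone, at 1.87 and 2.18. It passed the filter only through that pair, so its values are given with no test. Cspg4, the NG2 proteoglycan, rose from E17.5 to P0.5 by 1.92 (SE 0.51, limma adjusted p of 0.0191), beside 23.8% of all genes called. Of the 5 SC libraries in which it reached 1 FPKM, 4 were at P0.5, so it too passed the filter through the stage in which it was high. The call of Cspg4 is likewise not read as support, and with no filter the limma adjusted p was 0.0337.

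Of 26 further astrocyte genes, 22 were tested in the SC. Between the Cre groups at P0.5, 2 were called, both higher in Cre-positive SC, beside 32.5% of all genes, with a list median of 0.29 against 0.78 for all genes. They were the metallothionein Mt1, by 6.61 (SE 2.05, limma adjusted p of 0.0303, or 0.0554 with no filter), and Ndrg2. Ndrg2, abundant in astrocytes, stood at 77.3 and 24.03 FPKM in P0.5 Cre-positive SC and at 0 in both Cre-negative libraries, and was 0.927 FPKM or less in the other SC libraries. It passed the SC filter only through that pair, so its values are given with no test. No gene of the list was called between the Cre groups at E17.5, P7.5 or adult.

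From E17.5 to P0.5, 3 of the 22 were called, all higher, beside 23.8% of all genes. Apoe, the apolipoprotein of glia, rose by 6.12 and the secreted protease inhibitor Cst3 by 7.34, and the third was Ndrg2, which entered as above. With no filter Apoe and Cst3 missed the threshold, at limma adjusted p of 0.0610 and 0.0502. At P0.5 Apoe stood at 1549 and 1145 FPKM in Cre-positive and 1575 and 813 FPKM in Cre-negative SC. From P0.5 to P7.5 also 3 were called, beside 27.6% of all genes. The gap junction gene Gja1 rose by 4.37 (SE 0.66, limma adjusted p of 0.000677), while Apoe fell by 6.07, and the third was again Ndrg2. The fall of Apoe had a limma adjusted p of 0.0577 with no filter. From P7.5 to the adult none was called, and from E17.5 to the adult Gja1 alone rose, by 3.27 (SE 0.66, limma adjusted p of 0.0377), beside 1.55% of all genes. That rise had a limma adjusted p of 0.0579 with no filter.

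Gja1 was the most abundant of the astrocyte list in the adult SC, at 613 and 563 FPKM in Cre-positive and 180 and 253 FPKM in Cre-negative SC, followed on average by Cst3, at up to 179 FPKM, and the metallothionein Mt2, at up to 198 FPKM. At P0.5 its values were 12.9 and 15.8 FPKM in Cre-positive and 10.2 and 27.7 FPKM in Cre-negative SC. In the adult both Cre-positive values of Gja1 were above both Cre-negative values, though the difference was not called and the share of all genes split in this way was not computed. At P0.5 the groups overlapped. Against P0.5 retina Gja1 was lower in the SC, with a difference of -2.78 (limma adjusted p of 0.0391), and Apoe higher by 7.21, beside 17.9% of all genes called. Several of these genes, Apoe and Gja1 among them, are also expressed by retinal glia or other cells and do not mark astrocytes alone. The summed list ran from 302 to 1659 FPKM in adult SC against 526 and 559 FPKM in adult retina.

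**Figure D3:**
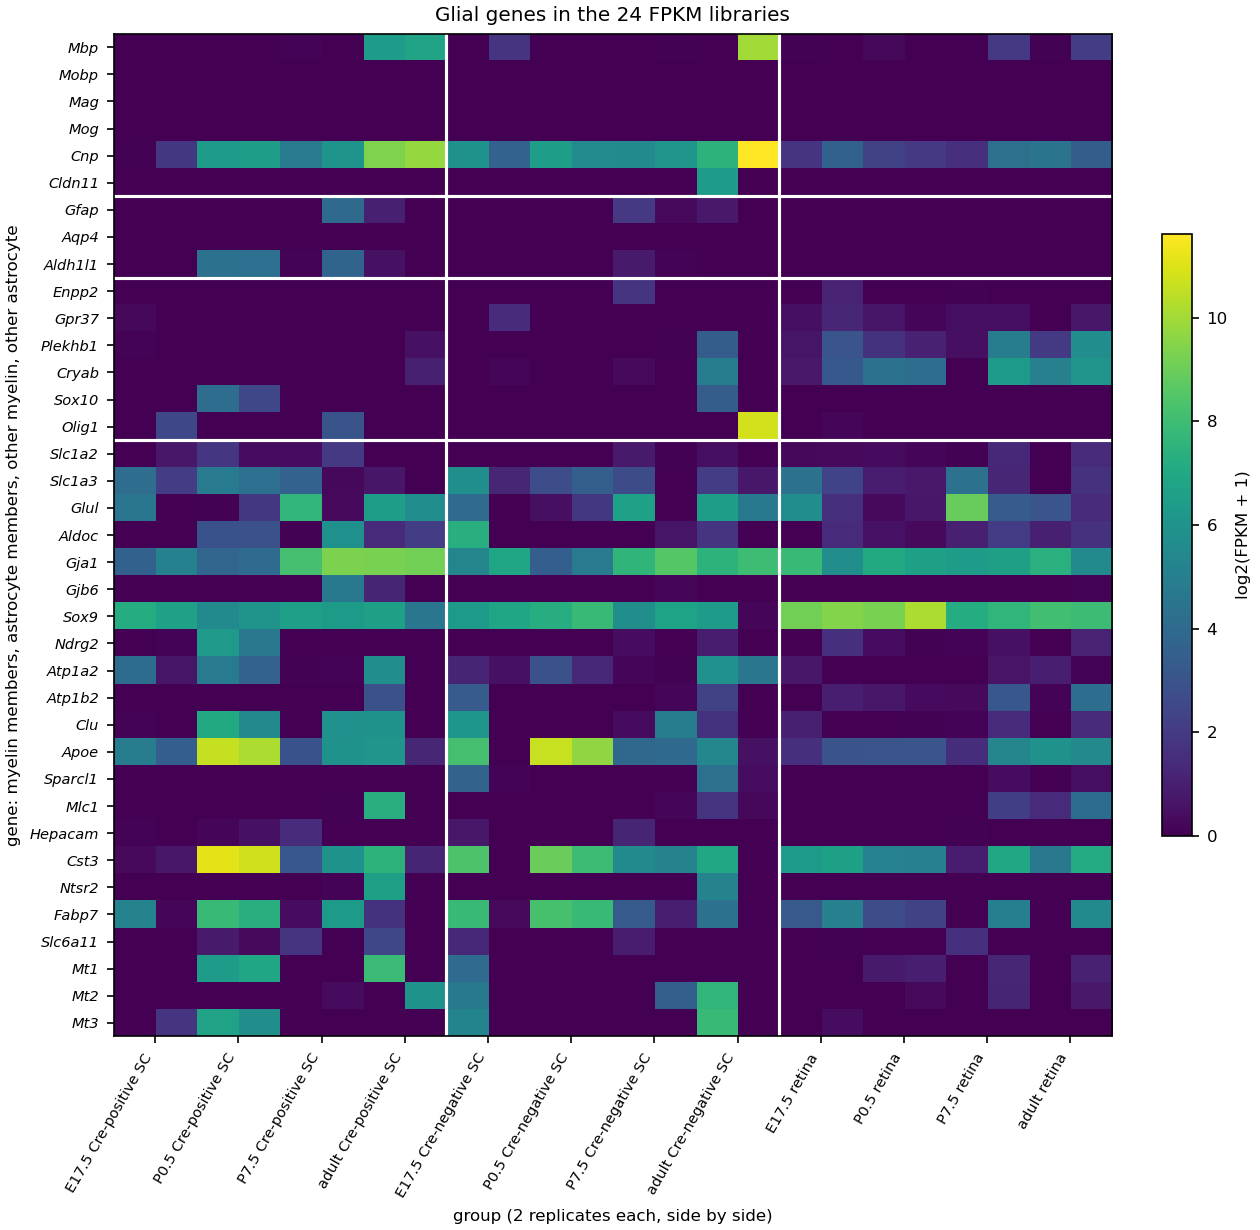
Colour gives log2(FPKM + 1) for the 9 genes and for further myelin and astrocyte genes that could be tested, in rows, across the 24 libraries, in columns ordered from Cre-positive over Cre-negative SC to retina with replicates side by side. The brightest Cnp, Mbp and Olig1 cells stand in adult Cre-negative replicate 2 (3128, 1019 and 1799 FPKM), and most of the myelin rows are at 0.

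Markers of other cell types varied widely among the 4 adult SC libraries. Of 10 microglial genes 0 to 2 reached 1 FPKM in a library, of 8 endothelial genes 0 to 1 and of 4 genes of inhibitory neurons 0 to 2, with summed FPKM of 0 to 109, 0 to 1.24 and 0.108 to 268. Of 10 photoreceptor genes 3 to 8 did, with sums of 4.55 to 136 FPKM against 449 and 947 in adult retina, and of 13 RGC genes 0 to 4, with sums of 0 to 606 FPKM. For the lists above it was 0 to 4 of the 27 myelin and oligodendrocyte genes and 3 to 16 of the 26 astrocyte genes. The part of these in the levels of Cnp and Mbp was not tested.

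By likeness across the 16 SC libraries, the genes closest to the mean log2(FPKM + 1) of the 6 myelin genes were Stard10, Spop, Nfia, Rbm15 and Camk2n1, with Pearson r of 0.821, 0.818, 0.817, 0.813 and 0.804 among 3484 genes. Nfia stood at 437 and 1364 FPKM in adult Cre-positive and 433 and 1371 FPKM in adult Cre-negative SC. Closest to the mean of the 3 astrocyte genes were Ndufaf7, Lmna, Fam21, Arhgdig and Drg1, with r of 0.933 to 0.908. The libraries share stage and depth, so these are descriptions. The profile of the myelin genes is in effect that of Cnp and Mbp, since Mobp, Mag and Mog were at 0 and Cldn11 was above 0 in 1 library. That of the astrocyte genes is in effect that of Aldh1l1 and Gfap.

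In ribosome run-off the lysate is incubated before the pull-down so that translating ribosomes reach the end of their mRNA, while new initiation is blocked. Each adult tissue had 1 library with and 1 without it, given as read counts, so the differences are between those libraries and have no replicate check. In Cre-positive SC the total was 349395 reads with run-off against 3262914 without, or 10.7%. Cnp kept more than that, with 4799 of 15678 reads, or 30.6% (95% interval 29.6 to 31.6 by counting error, exact). Mbp kept 545 of 1331 reads, or 40.9% (95% interval 37.0 to 45.3). Among the 339 genes with at least 1000 reads without run-off, the median kept 8.10%, 5.31% kept at least the share of Cnp and 2.65% at least that of Mbp, those genes included.

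The remaining members lost their reads or had few. Mobp went from 107 reads to 0 and Aqp4 from 273 to 0, so both were detected in this SC library although they were listed at 0 in all FPKM libraries. Of 2386 genes with at least 100 reads in it, 51 were likewise listed at 0 in all FPKM libraries. Cldn11 went from 6 reads to 0, Gfap from 2 to 23, and Aldh1l1, Mag and Mog had none in either SC library. A count of 0 with run-off allows up to 3 reads, counting error only. Over the 4587 SC genes with at least 3 reads without run-off the median left was 0%, so a drop to 0 was not particular to these members. The share among genes with as many reads as Mobp or Aqp4 was not computed.

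In retina, where run-off left 6.72% of 4686284 reads, Cnp went from 588 to 266 reads, or 45.2%, and Mbp from 9 to 73. Aldh1l1 went from 23 reads to 1 and Aqp4 from 17 to 0. Cnp therefore kept a larger share than the library total in both tissues, and Mbp had more reads with run-off than without in retina. In the SC Olig1 went from 777 reads to 1 and Ntsr2, a neurotensin receptor of astrocytes, from 509 to 0, whereas Ndrg2 went from 306 to 248, genes picked after their values were seen. Over the further lists, 4.49% of 1492 myelin and oligodendrocyte reads and 21.4% of 5262 astrocyte reads were left in the SC. The astrocyte reads leave out Slc1a3, Glul and Apoe, which were counted with a list of retinal glia. These went from 54 to 74, from 397 to 152 and from 76 to 3 reads in the SC.

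**Figure D4:**
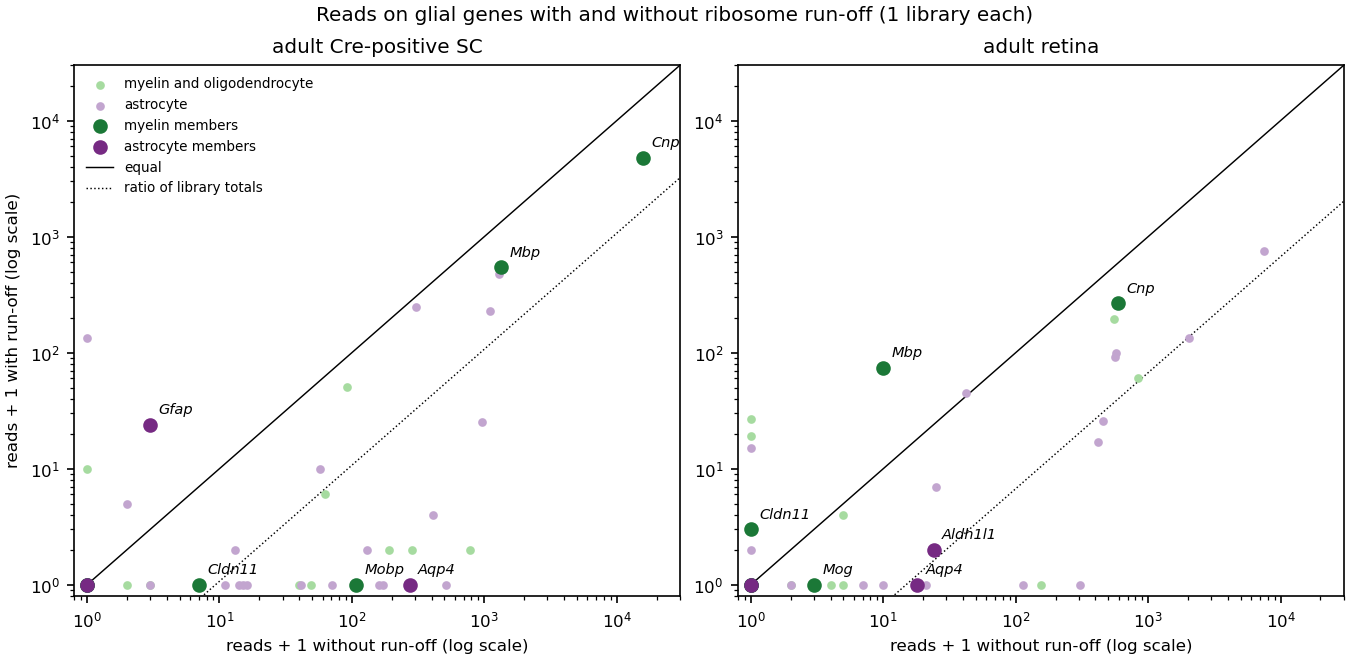
Reads + 1 with run-off are plotted against reads + 1 without it, both on log axes, for the glial genes in adult Cre-positive SC (left) and adult retina (right). Slc1a3, Glul and Apoe are left out. A solid line marks equality and a dotted line the ratio of the library totals. In the SC, Cnp (15678 to 4799 reads) and Mbp (1331 to 545 reads) lie between the lines, and Mobp and Aqp4 drop to 0. The median SC gene with at least 3 reads without run-off also had 0% left.

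In the GRCm38 annotation Cnp lies at chr11:100574904-100591729 on the plus strand, and 154 of its 3639 exon bases are shared with Dnajc7 on the other strand. Dnajc7 was listed at 48.8 FPKM in adult Cre-positive replicate 1 and at 0.840 FPKM or less in the other adult SC libraries, and without strand the reads of the shared stretch cannot be told apart. Aldh1l1 lies at chr6:90486427-90600203 on the plus strand and shares 499 of its 4516 exon bases with Gm15756 on the other strand and 105 with Gm45901 on the same strand, whose reads strand could not separate. Gfap lies at chr11:102887336-102900912 on the minus strand, and Cldn11 at chr3:31149920-31164324 on the plus strand.

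RefSeq start windows, from 250 bases before to 50 after the start in GRCm38.p6, were matched for 7 of the 9 genes. The 250 bases before the start are shown for Cnp and Aldh1l1, the members with a call, for chr11:100574689-100574938 and chr6:90550543-90550792, both on the plus strand. Capitals mark any match, on either strand, to 1 of 5 motifs. For the E-box of basic helix-loop-helix factors these are the letters CANNTG. The SOX motif, read by the SOX family to which Sox10 belongs, was searched as ACAAAG. The motif of MYRF, a factor of myelinating oligodendrocytes, was searched as CTGGNAC. For STAT factors, which act on Gfap in astrocytes, the letters were TTCNNNGAA. The TATA box was searched as TATAAA.
Cnp: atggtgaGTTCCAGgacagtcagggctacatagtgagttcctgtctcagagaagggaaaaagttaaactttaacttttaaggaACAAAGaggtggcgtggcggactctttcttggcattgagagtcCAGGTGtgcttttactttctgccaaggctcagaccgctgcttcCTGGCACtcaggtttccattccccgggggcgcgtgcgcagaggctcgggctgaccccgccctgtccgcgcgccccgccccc
Aldh1l1: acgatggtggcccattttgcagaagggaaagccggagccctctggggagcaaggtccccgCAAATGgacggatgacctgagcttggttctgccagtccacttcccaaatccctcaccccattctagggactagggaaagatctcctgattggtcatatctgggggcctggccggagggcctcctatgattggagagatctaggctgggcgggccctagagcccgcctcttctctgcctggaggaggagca
Cnp held 2 MYRF, 1 SOX and 1 E-box match, and Aldh1l1 1 E-box match. Among 32851 windows of all genes 19.3% held the MYRF letters, 18.7% the SOX letters and 72.3% the E-box letters. Of the members at 0, Mobp held 6 SOX matches, all on the minus strand. Gfap had 1 STAT match, which 8.30% of windows held, and Cldn11 had no match. A match is a match of letters only and is not evidence of a bound site.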

How the data were processed

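TRAPed RNA of 24 libraries (12 groups of 2) and 4 adult run-off libraries was analysed. Per the labels and the study's methods, the authors amplified cDNA by a single-cell PCR protocol, mapped reads to mm10 with TopHat2 2.0.12 and deposited FPKM per gene from Cufflinks 2.2.1, and deposited read counts per gene from HTSeq 0.6.1p1 for the run-off libraries. PCR amplification of little RNA can drop or inflate a gene in 1 library. Whether counting used strand is not given in the sources used here.

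FPKM were tested as log2(FPKM + 1) with limma 3.58.1 (R 4.3.3, trend and robust) on genes at 1 FPKM or more in at least 2 libraries of the fit: 5983 genes over 16 SC libraries, and 7193 genes over all 24 for SC against retina. P-values were adjusted by Benjamini-Hochberg over all genes tested. This replaced the count test of the study's methods, since FPKM are not counts. In 4 genes with an entry that is not a number no value was used. Depth was estimated from the spacing of low FPKM values, in which 1 fragment sets the step. The script was tested on simulated data, normal on the log2 scale. The simulated spread was capped below that of Cnp and Mbp, so the test does not show how often changes in such genes are found. Exon coordinates came from the GENCODE annotation of GRCm38. Run-off counts were given as reads and as a percent left, with exact 95% intervals covering counting error.

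The members and gene lists were chosen with earlier results of these data known. Text names the 9 members, up to 4 called genes per further list and contrast by adjusted p, the 3 most abundant genes in adult SC of the myelin and astrocyte lists, and the 5 genes most like each profile (at least 10 FPKM in 2 SC libraries). A gene of the further myelin list is not reported here. Alternatives were a pseudocount of 0.1, no filter, median-ratio scaling (factors 1.09 to 1.28 in the SC), a replicate block, leaving out each library, fits to 1 stage, each Cre group against retina and reads scaled to the library total (CPM).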

Additional observations from a re-analysis of the deposited data

Results flagged for a closer look

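The rise of Aldh1l1 from E17.5 to P0.5 differed between Cre-positive and Cre-negative SC, by an interaction term of 4.29 on the log2(FPKM + 1) scale (SE 1.32, limma adjusted p of 0.0344). In Cre-positive SC the gene went from 0 and 0.0265 FPKM to 19.9 and 18.2 FPKM. In Cre-negative SC it went from 0 in both libraries to 0 and 0.0289 FPKM. The gene thus passed the filter through the P0.5 Cre-positive pair, and the term is not read as support for a difference between the Cre groups. The term did not pass with a pseudocount of 0.1, without the filter, or when any one of the 8 libraries was left out, with limma adjusted p between 0.0531 and 0.162. In the same test 27.1% of all genes were called, and the median gene had a term of 1.59.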

How the results depend on the processing

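Of the 4 members tested, the count called changed in these cases. For P0.5 minus E17.5, 2 members became 1 with a pseudocount of 0.1 and with no filter on low values, and the interaction of Cre with that step went from 1 to 0 under both. For SC minus retina at P0.5, 2 became 0 with the pseudocount of 0.1 and 0 from Cre-negative SC alone. Leaving out 1 library gave 0 to 1 for Cre at P0.5, at adult and averaged over stages, 0 to 1 for P0.5 minus E17.5, for P7.5 minus P0.5 and for SC minus retina at P0.5, 0 to 2 for adult minus P7.5, 1 to 2 for adult minus E17.5, 0 to 2 for SC minus retina at P7.5 and at adult, 0 to 0 for the interaction of P0.5 with E17.5 and 0 to 1 for the other interactions. Of the 7 called member differences 0 changed sign in the alternatives run. Differences that were not called did, with these ranges when 1 library was left out. Between the Cre groups they were -0.0084 to 0.82 for Cnp at P0.5, -0.037 to 0.10 for Mbp, -1.0 to 0.23 for Cnp, -1.11 to 2.89 for Gfap and -0.36 to 3.27 for Aldh1l1 at P7.5, -3.42 to 6.58 for Mbp, -2.05 to 2.06 for Cnp and -0.40 to 0.63 for Gfap at adult, and -1.06 to 1.44 for Mbp and -0.25 to 0.75 for Gfap averaged. They were -0.0094 to 0.25 for Aldh1l1 from E17.5 to adult, and for interactions with Cre -0.037 to 0.10 for Mbp and -1.11 to 2.89 for Gfap from P0.5 to P7.5, and -3.45 to 6.55 for Mbp, -1.66 to 2.45 for Cnp, -2.77 to 1.22 for Gfap and -3.01 to 0.62 for Aldh1l1 from P7.5 to adult. Against retina they were -0.048 to 0.82 for Mbp and -0.74 to 1.10 for Cnp at E17.5 and -1.85 to 0.052 for Mbp at P7.5. With Cre-positive SC alone Mbp and Cnp at E17.5 were -0.048 and -1.72 against retina, and Cnp was -0.36 with the pseudocount of 0.1. Where a left-out library left a group with 1, that library was assumed to vary like the others. The spread of its pair then no longer entered the fit, so a call gained this way is not read as support.

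Same-numbered libraries deviated together at 3 stages (r of 0.417, 0.426 and 0.324 between Cre groups at E17.5, P0.5 and P7.5) and not in the adult (0.0595), so the numbers were not taken as pairs. With the replicate block, 1 member in place of 2 was called for SC minus retina at P0.5, where Aldh1l1 had a limma adjusted p of 0.0551, and no other member call changed. Over all genes the replicate block called 19 in place of 94 for Cre at E17.5, 0 in place of 9 at adult, 477 in place of 740 averaged, and 10 for 3 and 19 for 6 against retina at P7.5 and adult.

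Counts of genes called also moved elsewhere. Leaving out 1 library called 448 to 1244 genes in place of 1944 between the Cre groups at P0.5, 22 to 112 in place of 9 at adult and 15 to 160 in place of 6 for SC minus retina at adult. Against P0.5 retina, Cre-positive SC alone called 2007 genes and Cre-negative SC alone 425. Fits to 1 stage called 0 at E17.5 and adult. The pseudocount of 0.1 called 142 in place of 93 for adult minus E17.5 and 681 in place of 1285 for SC minus retina at P0.5, and no filter called 61 for the former and 335 in place of 122 for SC minus retina at E17.5. As CPM, run-off left Cnp and Mbp of Cre-positive SC at 286% and 382% of their level without it. With 2 libraries a group and 515077 to 2109730 fragments in adult SC, differences within the wide intervals given were not detectable.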
